A study of Mus musculus with 12 samples.

Results

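The mouse Hox genes encode homeodomain transcription factors that give cells their position along the head-to-tail axis. They lie in 4 clusters, HoxA to HoxD, in which low-numbered genes act towards the head and high-numbered genes towards the tail. The data described here are all histone-mark peaks that touch 4 windows of the mouse build mm9. The windows are HoxA on chromosome 6 (52.09 to 52.22 Mb), HoxB on chromosome 11 (96.05 to 96.23 Mb), HoxC on chromosome 15 (102.74 to 102.88 Mb) and HoxD on chromosome 2 (74.49 to 74.61 Mb). They held 63 of the 173601 peaks in the 10 deposited lists: 19 in HoxA, 28 in HoxB, 2 in HoxC and 14 in HoxD.

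The lists came from chromatin immunoprecipitation and sequencing of 5 histone marks in tumour cells of the iBIP melanoma mouse, with 1 library for each mark and genotype. All the animals carried Tyr-CreERT2, a Cre driven by a melanocyte promoter and switched on by tamoxifen, with Rosa26-rtta, TetO-BRAFV600E, PTENL/L and INK/ARFL/L, on mixed FVB and B6 stock. Doxycycline and 1 uM of 4-OHT on the ears started the tumours in both groups. WT cells came from KMT2D+/+ and mutant cells from KMT2DL/L mice, and the labels give neither the ages nor how many animals stood behind each cell population. KMT2D is a methyltransferase that places H3K4me1, mainly at enhancers. With 1 library a group, no difference below has a replicate check or a test, and a peak list carries no read depth, so depth and genotype cannot be told apart.

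In cells that do not use them, Hox clusters are kept silent by Polycomb complexes, which place H3K27me3 over the whole cluster. Active Hox genes instead carry H3K4me3 at their start sites, H3K27ac at promoters and enhancers, and H3K79me2 along the transcribed body. Regions with both H3K4me3 and H3K27me3 are called bivalent. In neural crest, the source of melanocytes, the use of Hox genes differs along the axis, the foremost crest lacking them.

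The 38 Hox genes of the list are named here by cluster and by the order of their first annotated base, which puts the long Hoxb3 and Hoxd3 models ahead of Hoxb4 and Hoxd4. From low to high coordinates RefSeq places Hoxa2, Hoxa3, Hoxa4, Hoxa5, Hoxa6, Hoxa7, Hoxa9, Hoxa10, Hoxa11 and Hoxa13 in HoxA. HoxB runs from Hoxb13 through Hoxb9, Hoxb8, Hoxb7, Hoxb6, Hoxb5, Hoxb3, Hoxb4 and Hoxb2 to Hoxb1. HoxC runs from Hoxc13 through Hoxc12, Hoxc11, Hoxc10, Hoxc9, Hoxc8, Hoxc6 and Hoxc5 to Hoxc4, and HoxD from Hoxd13 through Hoxd12, Hoxd11, Hoxd10, Hoxd9, Hoxd8, Hoxd3 and Hoxd4 to Hoxd1. The RefSeq table is on GRCm38.p6, not on mm9, so no peak was given to a single gene, and the markers of the melanocyte lineage were not checked.

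The promoters of these genes differ widely in CG dinucleotides, the letters that Polycomb target regions are known to be rich in. The RefSeq promoter table, 250 bases before to 50 after a start, matched 22 of the 38 genes with 24 promoters. Their median was 14.5 CG in 300 bases, against 7.0 over the 32851 promoters of the table, and 11 of the 24 (45.8%) had over 50% G and C and an observed over expected CG ratio above 0.6, against 33.3% of all. Hoxa9, at the low end with 4 CG, and Hoxa13, the highest with 45, show this range within HoxA. Hoxc4 had the only HoxC promoter in the table. The 3 sequences are from RefSeq, build GRCm38.p6, at chr6:52227321-52227620 (minus strand), chr6:52260831-52261130 (minus strand) and chr15:103034145-103034444 (plus strand). They are printed 5′ to 3′ with each CG in capitals.
Hoxa9 promoter: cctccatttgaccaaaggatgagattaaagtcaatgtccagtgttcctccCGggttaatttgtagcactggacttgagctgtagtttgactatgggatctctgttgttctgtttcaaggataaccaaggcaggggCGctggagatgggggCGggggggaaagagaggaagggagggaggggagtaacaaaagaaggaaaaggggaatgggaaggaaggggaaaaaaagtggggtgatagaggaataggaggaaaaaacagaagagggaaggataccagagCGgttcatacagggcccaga
Hoxa13 promoter: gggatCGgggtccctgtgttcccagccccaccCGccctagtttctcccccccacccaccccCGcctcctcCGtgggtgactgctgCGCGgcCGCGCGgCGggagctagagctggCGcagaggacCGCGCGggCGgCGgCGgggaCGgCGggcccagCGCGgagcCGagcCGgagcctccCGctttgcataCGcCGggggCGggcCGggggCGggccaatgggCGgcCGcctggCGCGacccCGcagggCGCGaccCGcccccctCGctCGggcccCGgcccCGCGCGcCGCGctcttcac
Hoxc4 promoter: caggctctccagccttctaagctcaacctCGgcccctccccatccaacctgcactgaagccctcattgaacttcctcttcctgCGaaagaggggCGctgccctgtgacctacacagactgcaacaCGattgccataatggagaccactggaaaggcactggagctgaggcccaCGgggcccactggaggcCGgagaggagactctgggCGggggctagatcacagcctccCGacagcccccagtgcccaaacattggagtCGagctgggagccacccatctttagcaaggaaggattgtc

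H3K27me3 covered most of every window in both genotypes, from 78.8% of HoxB in WT to all of HoxC in the mutant. Over the 570000 bp of the 4 windows WT peaks covered 511631 bp (89.8%) and mutant peaks 542118 bp (95.1%). Mutant cover was 1.06 times that of WT, while over the whole lists it was 1.36 times as long (37.8 against 27.8 Mb). With so little of the windows uncovered in WT, their ratio could not come near that of the whole lists, and the 2 ratios are not compared.

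HoxC was the most completely covered, at 139810 of 140000 bp (99.9%) for WT and all 140000 bp for mutant cells. In HoxA the WT cover was 119598 bp (92.0%) and the mutant cover 126370 bp (97.2%). In HoxD it was 110324 bp (91.9%) and 113537 bp (94.6%), in the same order. HoxB had the lowest cover and the largest difference, with 141899 bp (78.8%) for WT against 162211 bp (90.1%) for the mutant. All the bases covered in WT were also covered in the mutant in HoxA, HoxB and HoxC, and 98.7% of them were in HoxD.

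**Figure D1:**
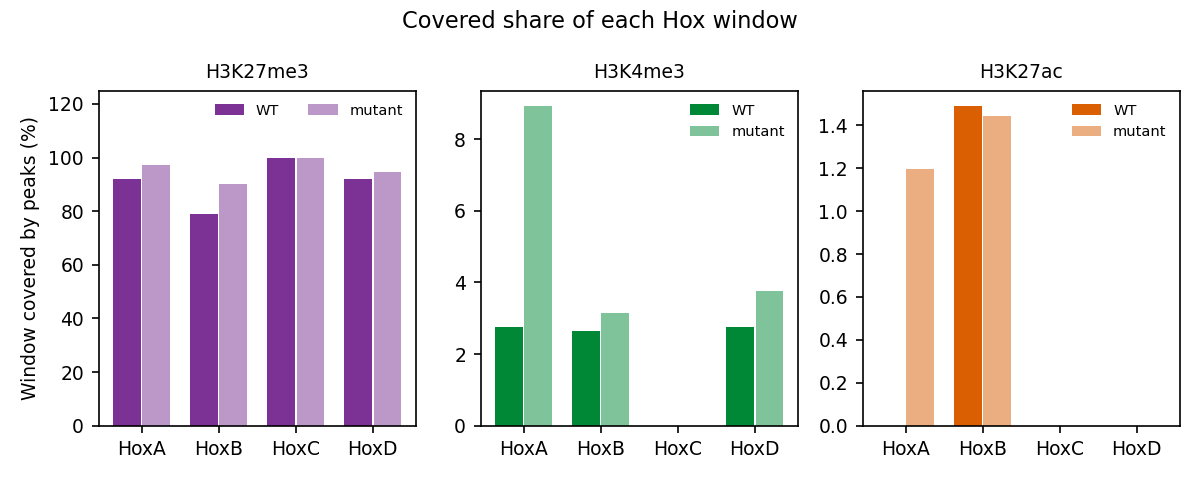
Share of each Hox window covered by peaks of H3K27me3, H3K4me3 and H3K27ac (%, each mark on its own scale), 1 bar per deposited list, dark for WT and light for mutant. H3K27me3 covers at least 78.8% of each window in both genotypes, while H3K4me3 reaches 8.92% at most, in mutant HoxA.

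The longest peaks of both H3K27me3 lists lay in the Hox clusters. In the mutant list of 14712 peaks, ranks 1 to 4 by length were a peak in each cluster. These were HoxC with 169199 bp, from 102735596 to 102904794 on chromosome 15, and HoxA with 141057 bp, from 52093631 to 52234687 on chromosome 6. HoxB followed with 132232 bp, from 96106562 to 96238793 on chromosome 11, and HoxD with 116774 bp, from 74480256 to 74597029 on chromosome 2. In the WT list of 13277 peaks ranks 1 to 4 were HoxC with 142199 bp (102737612 to 102879810), HoxD with 82901 bp (74510648 to 74593548), HoxA with 71414 bp (52134301 to 52205714) and HoxB with 60833 bp (96110646 to 96171478). The WT list thus had the same 4 clusters at its head, with shorter peaks and in another order.

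By the authors' −log10 q, the score of a broad peak against the input, these peaks were also among the strongest of their own lists. The 4 WT peaks had −log10 q values of 7.84 (HoxC), 8.24 (HoxD), 8.99 (HoxA) and 8.47 (HoxB), above 97.9 to 99.4% of the WT list. The 4 mutant peaks had 14.2 (HoxC), 13.1 (HoxA), 13.0 (HoxB) and 13.7 (HoxD), above 99.4 to 99.7% of the mutant list. The deposited fold enrichment ran from 5.19 to 5.49 in WT and from 6.37 to 6.91 in the mutant, and these values describe peaks within their own list only.

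The H3K27me3 of WT was more broken up. WT had 24 peaks in the windows, 7 in HoxA, 10 in HoxB, 1 in HoxC and 6 in HoxD. The mutant had 13, with 1 in HoxA, 9 in HoxB, 1 in HoxC and 2 in HoxD. HoxA showed this most plainly, since 7 WT peaks of 200 to 71414 bp faced a single mutant peak. In HoxC both lists had a single peak. The mutant H3K27me3 list also covered more of the genome, 37.8 against 27.8 Mb, and the part of this in the number of pieces was not tested.

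The breaks in the WT cover were mostly short. Between WT peaks there were 20 gaps with a median of 1239 bp, 14 of them under 2000 bp, and 13 of the 20 lay wholly inside mutant H3K27me3. In HoxA all 6 WT gaps, of 918 to 1664 bp, were filled in the mutant. Of the 20 WT gaps, 2 held any H3K4me3 of the same genotype, over 43 bp in HoxB and 214 bp in HoxD, and none held H3K27ac. The mutant had 9 gaps, 8 of them in HoxB.

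HoxB had a stretch of thin H3K27me3 in both genotypes. In WT it spanned 39599 bp between its 2 long peaks, from 96071047 to 96110645, with 5 short peaks of 200 to 2636 bp that covered 12.8% of it. In the mutant the corresponding stretch spanned 34386 bp, from 96072176 to 96106561, with 7 short peaks of 437 to 6448 bp that covered 48.3%. No other mark had a peak there in either genotype.

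**Figure D2:**
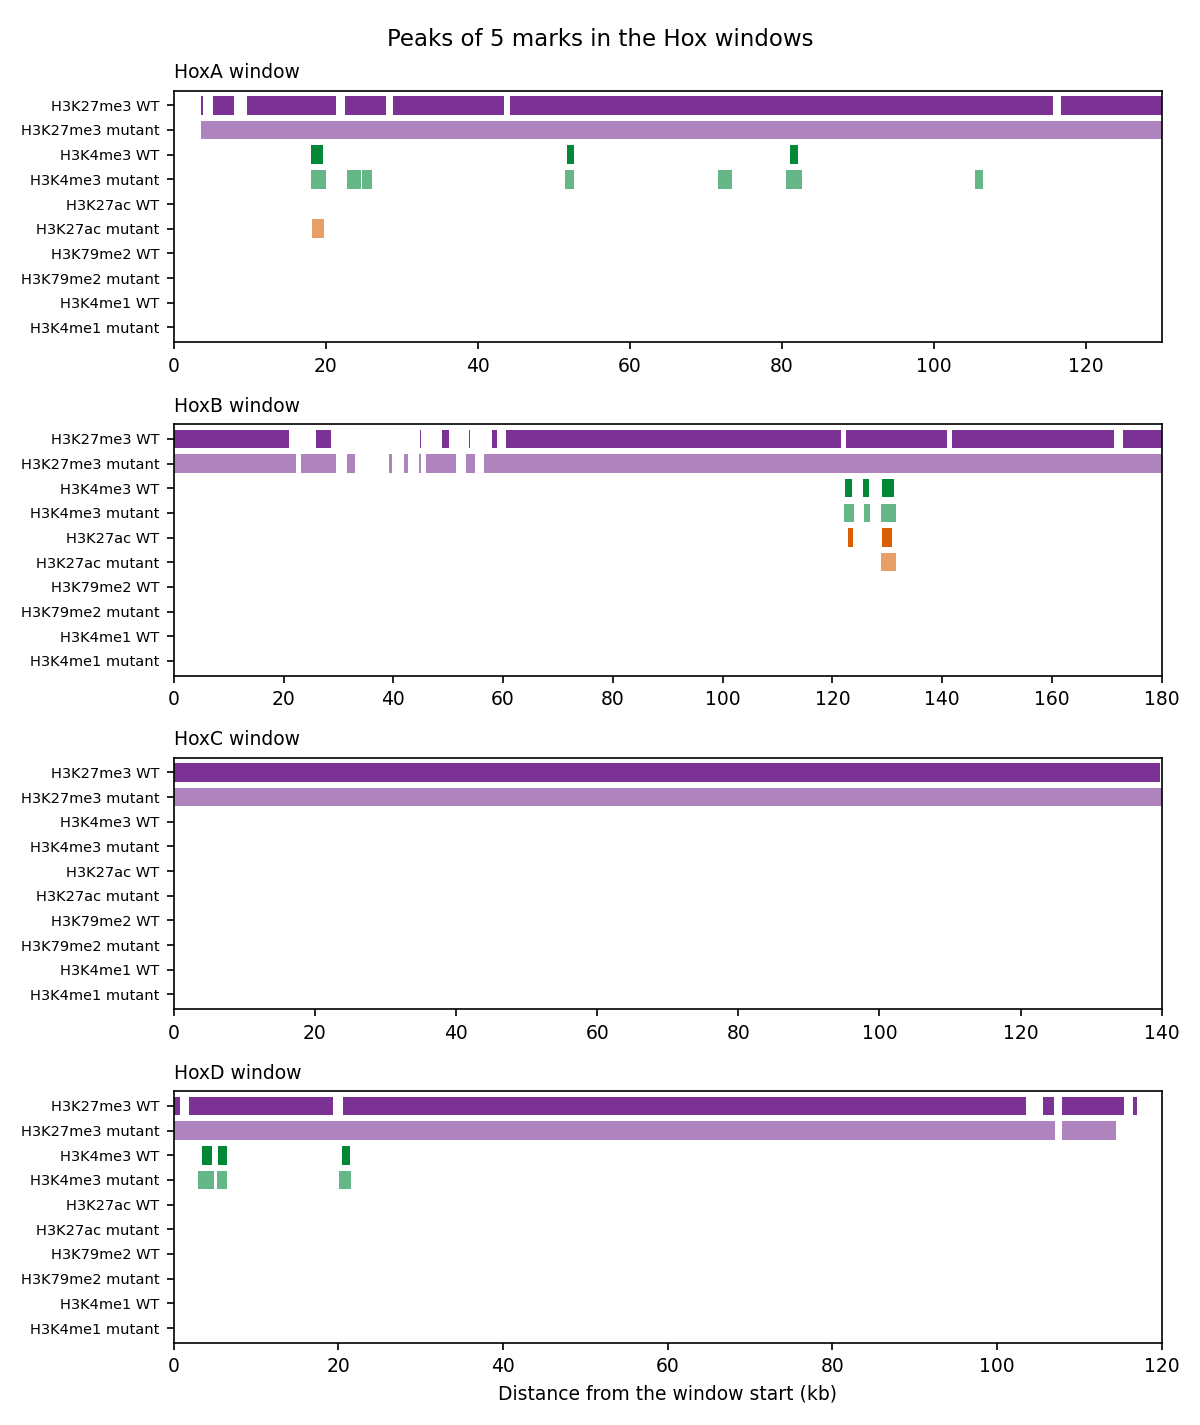
Peaks of each deposited list in the 4 Hox windows against the distance from the window start (kb), dark for WT and light for mutant, cut at the window edges. H3K27me3 runs through all windows, broken into more pieces in WT, and the few H3K4me3 and H3K27ac peaks lie on it; H3K79me2 and H3K4me1 have none.

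Of the H3K27me3 peaks in the windows, 1 in WT and 3 in the mutant were not overlapped by any peak of the other genotype. The WT peak was 1 of 24 (4.17%, exact 95% interval 0.105 to 21.1%), against 35.0% of the whole WT list. It was 501 bp long, in HoxD from 74606523 to 74607023. The mutant peaks were 3 of 13 (23.1%, 5.04 to 53.8%), an interval that holds the 49.9% of the whole mutant list. H3K27me3 covered 89.8% (WT) and 95.1% (mutant) of the windows, so nearly any peak there would overlap the other genotype. The lower shares in the windows follow from this cover and are not read as a result. The mutant count was 7 of 13 when 50% of a peak had to be overlapped, and 24 of 55 in windows widened by 50 kb, where WT had 7 of 59. With any overlap allowed, all 3 mutant peaks lay in the thin stretch of HoxB, and the longest had 1501 bp, from 96081587 to 96083087. Intervals cover counting error only, and peaks of a cluster are not independent.

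H3K4me3, the start-site mark, appeared at 13 sites in 3 clusters and nowhere in HoxC. WT had 9 peaks over 11621 bp, with 3 each in HoxA, HoxB and HoxD. The mutant had 13 over 21757 bp, with 7 in HoxA and 3 each in HoxB and HoxD. The ratio of covered length was 1.87, against 1.05 over the whole H3K4me3 lists.

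All 9 WT H3K4me3 peaks had a mutant peak at the same place, where 11.3% of the whole WT list had none. The mutant peak was the wider at 8 of these 9 sites; over the whole lists the median width was also greater in the mutant, 2154 against 1866 bp. The other 4 mutant peaks (30.8% of 13, interval 9.09 to 61.4%) had no WT peak, against 6.18% of the whole mutant list. All 4 were in HoxA. They ran from 52112835 to 52114727 (score 323.8), from 52114800 to 52116115 (147.1), from 52161647 to 52163509 (277.0) and from 52195358 to 52196544 (136.8). Merging peaks within 1000 bp, which joins neighbours such as the first 2, left 3 unshared, and equal peak numbers left 6. The scores of the 4 peaks stood above only 7.95 to 25.3% of the mutant list. The unshared share among equally weak peaks of the whole list was not tested, so 6.18% is not a like comparison.

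HoxA therefore held most of the H3K4me3 difference, at 3588 bp for WT against 11589 bp for the mutant, a ratio of 3.23. In HoxB the H3K4me3 cover was 4737 and 5652 bp (1.19), and in HoxD 3296 and 4516 bp (1.37). The 3 HoxA sites with H3K4me3 in both genotypes had widths of 1519 bp (WT) and 2029 bp (mutant) near 18 kb from the window start, 1003 and 1206 bp near 52 kb, and 1066 and 2095 bp near 81 kb.

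The H3K4me3 peaks of the Hox clusters were weak for their lists. MACS scores, 10 times the −log10 p, ran from 104.6 to 795.2 in WT with a median of 218.4, while the whole WT list had a median of 926.9. In the mutant they ran from 136.1 to 874.7 with a median of 259.4, against 731.0 for the list. The strongest was the same HoxB site in both, from 96178970 to 96181318 in WT (score 795.2, above 44.8% of its list) and from 96178787 to 96181528 in the mutant (874.7, above 57.3%). The next strongest site was near 18 kb in HoxA, with a score of 340.5 in WT and 482.3 in the mutant.

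Every H3K4me3 peak in the windows was bivalent by position, though the lists do not tell whether the marks shared nucleosomes, alleles or cells. All 9 WT and all 13 mutant peaks overlapped H3K27me3 of their own genotype, and 7 and 13 lay wholly inside it. Over the whole lists 16.5% of WT and 15.6% of mutant H3K4me3 peaks overlapped H3K27me3. H3K27me3 covered 89.8 and 95.1% of the windows, so nearly any peak placed there would overlap it.

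H3K27ac, the mark of active promoters and enhancers, had 2 peaks in each genotype, at 3 sites that all carried H3K4me3. The site shared by both lists was the strong HoxB site: 1865 bp from 96179065 to 96180929 in WT (score 352.5) and 2601 bp from 96178914 to 96181514 in the mutant (623.1). Within their lists these scores stood above 55.9% and 77.1% of the peaks. A weaker WT peak in HoxB, 814 bp from 96172886 to 96173699 (score 118.3), had no mutant peak, although mutant H3K4me3 covered all of it.

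In HoxA only the mutant had H3K27ac, a peak of 1555 bp from 52108209 to 52109763 (score 220.5). It sat on the H3K4me3 site near 18 kb, where WT had H3K4me3 over 1447 bp and H3K27me3 over all 1555 bp but no H3K27ac peak. So 1 of 2 H3K27ac peaks in each genotype was unshared (interval 1.26 to 98.7%), against 24.1% of the whole WT and 18.4% of the whole mutant list. HoxC and HoxD had no H3K27ac peak in either.

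Acetylated and trimethylated H3K27 thus overlapped by position at all 3 sites: the 4 H3K27ac peaks lay wholly inside H3K27me3 of the same genotype. Over the whole lists 0.670% of WT and 0.698% of mutant H3K27ac peaks did so. With H3K27me3 over 89.8% (WT) and 95.1% (mutant) of the windows, nearly any peak there would lie inside it. A single lysine cannot carry both groups, and the lists do not tell whether the marks shared nucleosomes, alleles or cells. In total WT H3K27ac covered 2679 bp and mutant H3K27ac 4156 bp (1.55). Within HoxB the values were 2679 and 2601 bp (0.971), and this direction turned to 1.395 with scores of at least 200, which removed the weaker WT peak.

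H3K79me2 and H3K4me1 had no peak in any window in either genotype. Both marks had long lists elsewhere, 26353 WT and 22103 mutant peaks for H3K79me2, and 15981 and 5358 for H3K4me1. The H3K4me1 list was the one that differed most, the mutant covering 0.300 times the WT length. None of that difference fell in the Hox windows, since WT had no H3K4me1 peak there. The nearest WT H3K4me1 peaks outside lay 119.0 kb from HoxC, 214.8 kb from HoxA, 318.6 kb from HoxB and 908.8 kb from HoxD. An unlisted region passed no threshold of the authors, which does not show that the mark was absent.

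No border between H3K27me3 and active chromatin ran through a Hox window. A border was counted where a stretch with H3K27me3 and neither H3K27ac nor H3K79me2 gave way to one with either of these and no H3K27me3. H3K4me3 was left out of this count, so the H3K27me3 stretches could also carry it. There were 0 such borders in WT and 0 in the mutant, since no base of the windows carried H3K27ac or H3K79me2 without H3K27me3. H3K27me3 with neither of these marks held 119598 bp of HoxA, 139220 bp of HoxB, 139810 bp of HoxC and 110324 bp of HoxD in WT. The mutant values were 124815, 159610, 140000 and 113537 bp. Bases with both kinds numbered 2679 in WT HoxB, 1555 in mutant HoxA and 2601 in mutant HoxB. Counting H3K4me3 and H3K4me1 as active gave 4 borders in WT, at the 2 gaps where H3K4me3 reached past H3K27me3, and still 0 in the mutant.

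The H3K27me3 went on past the windows. In the 8 flanks of 50 kb it covered 38.1% in WT and 51.9% in the mutant, and none of the other marks had a peak there in either genotype. Over the whole lists mutant H3K27me3 cover was also the greater, at 1.36 times that of WT, so the flank difference is not read as particular to Hox. The high-coordinate flank of HoxA was covered over 70.3% in WT and 93.4% in the mutant, and that of HoxC over 66.3% and 89.7%. The lowest cover was 7.51% in WT, in the low-coordinate flank of HoxC (21.3% in the mutant), and 9.36% in the mutant, in the high-coordinate flank of HoxD (12.7% in WT). The latter was the only flank of the 8 with less H3K27me3 in the mutant.

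The first active peaks, H3K27ac or H3K79me2, outside the clusters stood within 1.4 kb of the same distance in both genotypes on 7 of the 8 sides. On the high-coordinate side of HoxA the first active peak stood 15.8 kb farther in the mutant. There and on the low-coordinate side of HoxB it was H3K27ac in WT and H3K79me2 in the mutant, so these distances mix marks. HoxD was the closest to active chromatin. On its high-coordinate side an H3K27ac peak began 53.5 kb from the window in WT (74663473 to 74664795) and in the mutant (74663452 to 74664713). The last H3K27me3 peak before it ended 752 bp short of it in WT and 1397 bp short in the mutant. These last H3K27me3 peaks were short, 1380 and 221 bp. From the window to the H3K27ac peak H3K27me3 covered 14.5% in WT and 9.17% in the mutant, so the close marks were not an edge of the long Hox cover. On the low-coordinate side the first H3K27ac peak ended 72.2 kb from the window in both, with 37.2 kb (WT) and 41.0 kb (mutant) free of H3K27me3 before it.

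HoxB had its first active peak 111.9 kb out on the low-coordinate side in WT (H3K27ac) and 113.3 kb out in the mutant (H3K79me2), with 8003 and 9056 bp between it and H3K27me3. Of H3K27ac alone, the first mutant peak there was 122.5 kb out. On the high-coordinate side H3K27ac lay 393.9 and 395.1 kb away. HoxC had H3K79me2 113.0 kb (WT) and 113.1 kb (mutant) out on the high side, 12.04 and 12.06 kb past the last H3K27me3, and H3K27ac 236.5 and 235.8 kb out on the low side. There the WT H3K27ac peak overlapped an H3K27me3 peak of 1361 bp. In the mutant the first H3K27me3 peak wholly past the H3K27ac peak began 7.24 kb beyond it. H3K27me3 lying inside the mutant H3K27ac peak was not looked for, so the genotypes are not compared here. HoxA had H3K27ac 126.5 and 126.7 kb out on the low side, and on the high side its first active peak was 351.7 kb out in WT (H3K27ac) and 367.5 kb out in the mutant (H3K79me2). The first mutant H3K27ac peak on that side was 405.1 kb out, and the first WT H3K79me2 peak 364.5 kb out.

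**Figure D3:**
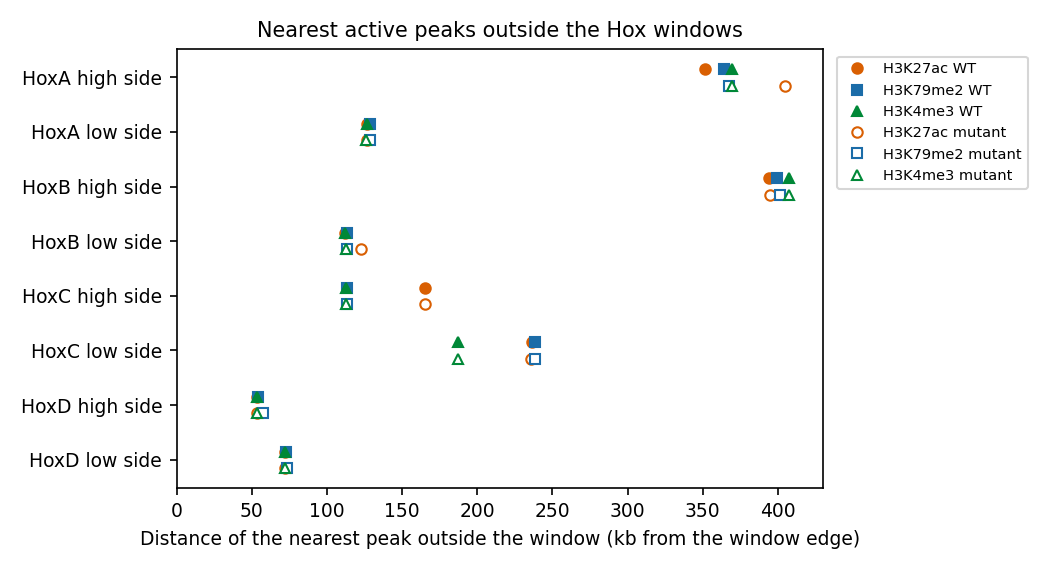
Distance in kb from the window edge to the nearest H3K27ac, H3K79me2 and H3K4me3 peak on the low- and high-coordinate side of each Hox window, filled for WT and open for mutant. All lie at least 53.1 kb out, HoxD being the closest, and WT and mutant symbols nearly coincide on most sides; the mutant H3K27ac symbol stands apart at the high side of HoxA (405.1 against 351.7 kb) and the low side of HoxB (122.5 against 111.9 kb).

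In 4 of 5 cases the Hox regions were longer than any other long H3K27me3 domain. Peaks of at least 10000 bp in either list, joined where they overlapped, gave 5 regions in the Hox windows (HoxB gave 2) and 645 elsewhere. The shorter HoxB region had 48389 bp and the other Hox regions 116774 to 169199 bp. The longest domain elsewhere had 56917 bp, and the median there was 14363 bp. Each Hox region was a single mutant peak, so its full mutant cover follows from how the regions were drawn. WT H3K27me3 covered 91.7 to 95.4% of the Hox regions, against a median of 81.4% (quartiles 69.2 and 90.2%) of the others. Mutant cover of the others was 100% at the median and at both quartiles, so most of them were drawn from mutant peaks. That choice lowers WT cover most in regions near the 10000 bp limit. The WT cover of the 2 sets is thus not a like comparison.

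WT H3K27me3 also lay in more pieces than mutant H3K27me3 in many regions outside the Hox clusters. WT had more pieces than the mutant in 4 of the 5 Hox regions and in 407 (63.1%) of the 645 others, of which 25 had fewer. All 5 Hox regions and 606 of the others held 1 mutant piece. In such a region WT can have fewer pieces only by having none. The split therefore follows largely from how the regions were drawn, and no conclusion on break-up is drawn from it. The medians were 5 WT pieces in the Hox regions and 2 elsewhere, with 1 mutant piece in both sets. Longer regions can hold more pieces: the 4 other regions of at least 50000 bp had a median of 6 WT pieces. All 4 held 1 mutant piece and had more pieces in WT. H3K4me3 was found in 3 of the 5 Hox regions in both genotypes, and in 45.9% (WT) and 42.6% (mutant) of the others. Of the 4 others of at least 50000 bp, nearer in length to the Hox regions, 2 (WT) and 3 (mutant) held H3K4me3. The nearest active peak beside a Hox region was 62.4 to 168.4 kb away in WT and 62.4 to 169.8 kb in the mutant. For the other regions the medians were 40.2 kb (quartiles 15.1 and 79.7) and 45.0 kb (19.1 and 86.8).

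**Figure D4:**
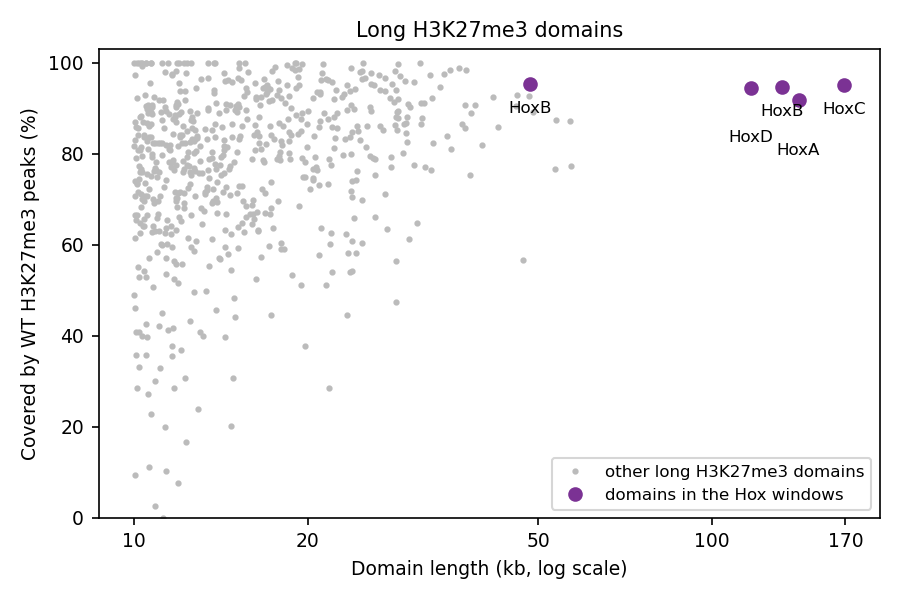
Length of long H3K27me3 domains (kb, log scale) against the share covered by WT H3K27me3 peaks (%), with the 5 regions in the Hox windows in purple and the 645 others in grey, 1 point per domain. Apart from the shorter HoxB region, the Hox regions are at least 116774 bp long and stand beyond all the others, with 91.7 to 95.4% covered.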

How the data were processed

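ChIP-seq of H3K4me1, H3K27ac, H3K4me3, H3K79me2 and H3K27me3 was used from WT and mutant cells, 10 libraries of the 12 samples; the 2 inputs were not used here. Bowtie, MACS, MACS2, deepTools and mm9 are named without versions or roles, per the submitters' processing notes. The H3K4me1, H3K27ac and H3K4me3 lists hold a MACS score per peak, as the authors deposited it. The H3K79me2 and H3K27me3 lists are MACS2 broad peaks with a deposited score, fold enrichment (ratio), −log10 p and −log10 q. Each list comes from a single library, whose depth is unknown.

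Peaks touching a window were taken, clipped to it for covered length, and called shared at 1 bp of overlap with the other genotype. No test was made. Longest peaks, borders and unshared peaks were named by rule; distances outside the windows, the HoxB stretch and the sequences were chosen after seeing the data. The windows, members and lists were chosen with earlier results of these data known. Alternatives were 2 stricter thresholds (score 100 and −log10 q 3; 200 and 5), merging within 1000 bp, windows widened by 50 kb, equal peak numbers, 50% overlap, sharing within 1000 bp, a wider set of active marks and stretches of at least 1000 bp. Python 3.11.15, numpy 2.4.6, pandas 2.3.3, scipy 1.17.1 and matplotlib 3.10.9 were used, and cover, overlap and border counts were tested on simulated intervals.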

Additional observations from a re-analysis of the deposited data

How the results depend on the processing

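The lists have 1 library per genotype and mark, and read depth is unknown. No paired analysis was possible because each group has a single library and no result comes from a test. The mutant over WT ratios of covered length over all the clusters kept their direction under each alternative applied to them. They ran from 1.05 to 1.13 for H3K27me3, 1.79 to 2.27 for H3K4me3 and 1.55 to 2.23 for H3K27ac. The milder of the stricter thresholds removed no peak from the windows, so it could not change these ratios. H3K79me2 and H3K4me1 stayed at 0 bp. Thresholds, merging and equal peak numbers cannot add a peak to an empty window. Only widening the windows by 50 kb could have changed the 0 bp. With scores of at least 200 and −log10 q of at least 5, the H3K27ac ratio in HoxB reversed to 1.395, the H3K4me3 ratio in HoxD was 2.71, the unshared WT H3K27ac peaks fell to 0, the mutant H3K27me3 peaks were 8 and WT had 2 borders; fewer peaks pass this threshold. Counting H3K4me3 and H3K4me1 as active gave 4 WT borders. In windows widened by 50 kb, there were 59 WT and 55 mutant H3K27me3 peaks, of which 7 and 24 were unshared. Requiring 50% overlap left 7 mutant H3K27me3 peaks unshared. With the mutant H3K27me3 list limited to its 5639 strongest peaks, of about the covered length of the WT list (chosen after seeing the data), 2 WT and 0 mutant H3K27me3 peaks were unshared, and 9 mutant peaks faced 24 in WT. This limit drops whole mutant peaks and splits none, so the mutant count could only fall. It cannot test whether the greater mutant cover joins the pieces.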
